A study of Homo sapiens with 4 samples.

Results

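The genes described here are 32 genes of glucose breakdown: 2 glucose transporters, 11 genes of upper glycolysis, 5 of lower glycolysis, 6 of lactate and pyruvate handling, and 8 of the pentose phosphate pathway. They were chosen by name, as enzymes, transporters and close regulators of these steps, out of 22187 genes in the tables, and GAPDH was kept out of the set. All 32 were listed in at least 1 library. RNA was sequenced in 4 libraries from 2 human multiple myeloma lines, KMS18 and KMS28BM (K18 and K28BM in the labels). The labels give both as plasma cells of bone marrow with the t(4;14) translocation, which joins the immunoglobulin heavy chain locus to the region of NSD2 and FGFR3. Per line, 1 library came from cells with a luciferase control construct. The other came from cells in which PKCα, the product of PRKCA, was stably knocked down. The t(4;14) is therefore shared by all 4 groups, and each group is a single library of an established line. The sequence of the knockdown construct is not in the labels.

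Glycolysis splits glucose into pyruvate in the cytosol. Hexokinase traps glucose as glucose 6-phosphate, phosphofructokinase commits it to breakdown, and the lower steps from phosphoglycerate kinase to pyruvate kinase return ATP. Pyruvate then enters mitochondria or is reduced to lactate and exported, while the pentose phosphate pathway branches off at glucose 6-phosphate to supply NADPH and ribose 5-phosphate for nucleotides. Malignant plasma cells, which grow and secrete immunoglobulin, are known for high glucose use, and MYC and HIF-1 are known transcriptional regulators of many of these genes.

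Of the 30 genes that passed the filter on low counts, 4 fell with the knockdown and 0 rose. They were HK2, PGAM1, RPE and PDK1, 1 gene each from upper glycolysis, lower glycolysis, the pentose phosphate pathway and the control of pyruvate entry. Over all 14870 genes tested, 5.25% were called lower and 3.57% were called higher. SLC2A3 and SLC16A3 did not pass the filter. The other 26 genes were not called. Of the 30, 9 had an unadjusted p under 0.05 (edgeR), the 4 included, against 3919 of all 14870 genes tested. These calls rest on edgeR's quasi-likelihood test with Benjamini-Hochberg adjustment over all genes. With 1 library for each construct in a line, the test sets the mean move of the 2 lines against a spread. That spread is mostly borrowed from other genes (1 residual degree of freedom, prior of 5.85). A p-value therefore does not measure how alike the 2 lines moved, and there is no replicate check within a line.

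The 4 genes that fell all carry AGTCTA in an annotated 3′ UTR. The search was prompted by an earlier look at the calls in these data, so the match describes the 4 genes and supports nothing about them. One site per gene is shown because these are the genes the knockdown result turns on, with PGK1 as the remaining gene that holds the letters and PRKCA as the knockdown target. Sequences run 5′ to 3′ on the plus strand, read from GENCODE 29 transcripts on GRCh38. Capitals mark the longest run that matches CAGTCTAA without a break.
HK2 chr2:74893246-74893270: tgagcactCAGTCTAgtgaagatgt
PGAM1 chr10:97432740-97432764: caggttctCAGTCTAAgctatggaa
RPE chr2:210020956-210020980: cttatttcCAGTCTAAttttacgct
PDK1 chr2:172598716-172598740: tgaagtagaAGTCTAccatattatt
PGK1 chrX:78126758-78126782: tagatcaaaAGTCTAcataactaat
PRKCA chr17:66810316-66810340: actattttgAGTCTAAaggttttct

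The knockdown and the cell identity were checked first. In KMS18, PRKCA had 7.46 FPKM in the control and 1.47 FPKM in the knockdown, and in KMS28BM it had 10.9 and 2.43 FPKM. FPKM are sequenced fragments scaled to transcript length and library size. It fell by 2.34 on the log2 scale over both lines (SE 0.11, adjusted p of 0.00153 by edgeR). The libraries held 37940949 to 39507281 expected counts, and the 32 genes took 0.599% of them in the KMS18 control, 0.534% in its knockdown, 0.952% in the KMS28BM control and 0.885% in its knockdown. All 9 plasma cell markers were present, with summed levels of 7690 (control) and 6599 FPKM (knockdown) in KMS18, and of 8661 and 7933 FPKM in KMS28BM. JCHAIN made up most of each sum and was not called. It had 5701 (control) and 5376 FPKM (knockdown) in KMS18, with 6689 and 6760 FPKM in KMS28BM. Of those 9 markers 6 fell and 1, CD38, rose (edgeR), against 5.25% and 3.57% of all genes tested. The 6 were SLAMF7 (-0.95 in log2), XBP1 (-0.90), MZB1 (-0.83), IRF4 (-0.73), TNFRSF17 (-0.68) and SDC1 (-0.65). CD38 rose by 0.59 in log2 on counts, while its FPKM went from 26.4 to 29.2 in KMS18 and from 4.99 to 5.99 in KMS28BM. Its listed gene length in the knockdowns was 1.37 (KMS18) and 1.36 (KMS28BM) times that of the controls. Summed markers of B, myeloid, erythroid and stromal cells were at most 2.39 FPKM in any library, and MS4A1, a defining B cell marker, was at or below 0.17 FPKM. T cell markers summed to 7.57, 21.1, 1.10 and 3.38 FPKM (KMS18 control and knockdown, then KMS28BM control and knockdown), and nearly all of that was CD3E, while CD3D was at or below 0.22 FPKM. The part of these marker shifts in the results below was not tested. In bulk RNA, fewer cells of a kind and less RNA per cell cannot be told apart.

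**Figure D1:**
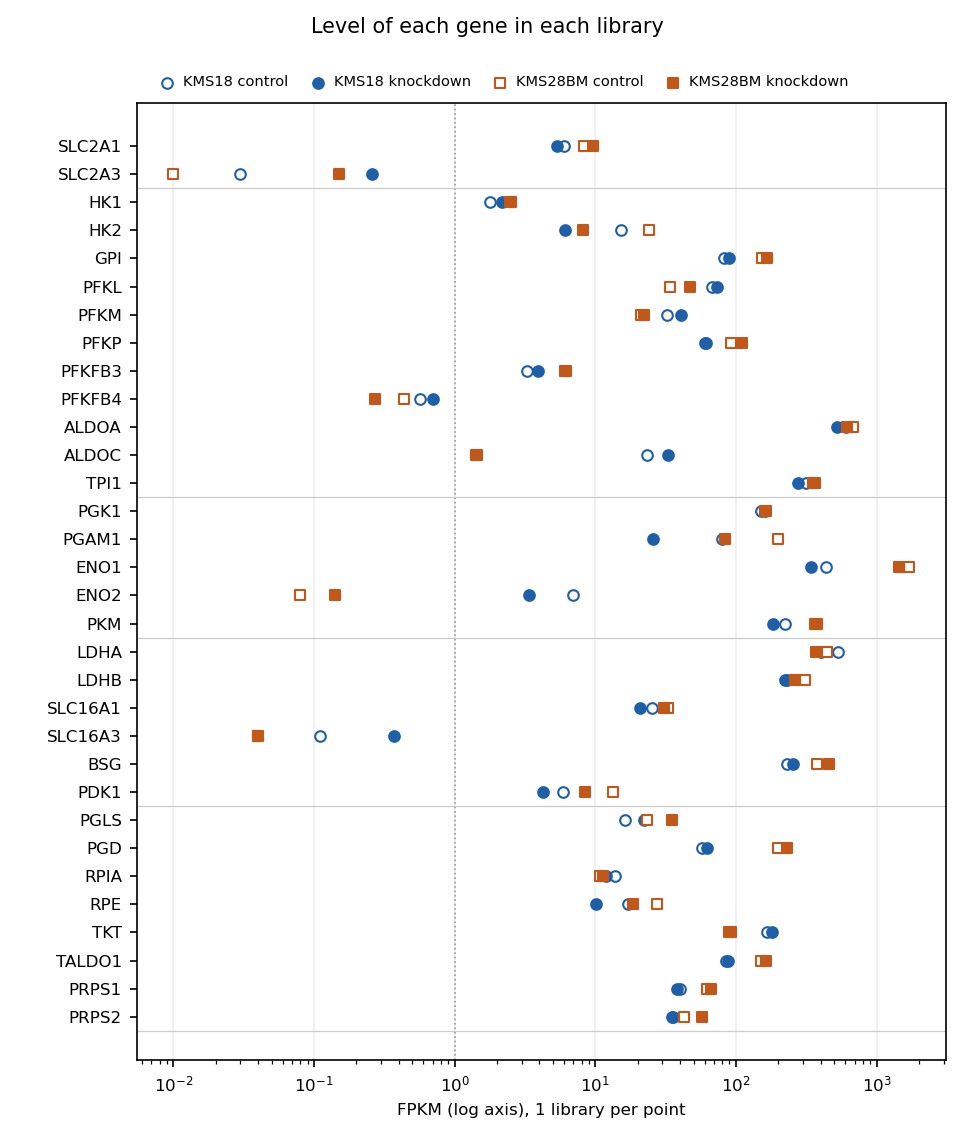
Level of each of the 32 genes in each of the 4 libraries, in FPKM on a log axis, with 1 point per library, open symbols for control and filled symbols for knockdown. Horizontal lines part the 5 steps, and the dotted line marks 1 FPKM. ALDOA and ENO1 are among the 3 highest in every library, and SLC2A3, SLC16A3 and PFKFB4 lie below 1 FPKM in all 4 libraries.

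The levels ran from near 0 to 1699 FPKM. FPKM is scaled to gene length, so levels of different genes can be set side by side. Of the 32 genes, 28 reached 1 FPKM in all 4 libraries, and 3 (SLC2A3, SLC16A3 and PFKFB4) stayed below it in all 4. The remaining gene, ENO2, reached it in KMS18 alone. In the KMS18 control the order was led by ALDOA at 609.6 FPKM, LDHA at 536 FPKM, ENO1 at 434 FPKM and TPI1 at 317 FPKM. In the KMS28BM control ENO1 led at 1699 FPKM, ahead of ALDOA at 674 FPKM, LDHA at 441 FPKM and PKM at 379 FPKM. ALDOA, LDHA, ENO1 and TPI1 held the first 4 places in both KMS18 libraries, and ENO1 and ALDOA held the first 2 in both KMS28BM libraries.

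Of the 2 glucose transporters in the set, SLC2A1, the widespread transporter GLUT1, was the higher in every library. SLC2A1 measured 5.97 (control) and 5.38 FPKM (knockdown) for KMS18, with 8.28 and 9.57 FPKM for KMS28BM, control first. It was lower in the KMS18 knockdown and higher in the KMS28BM knockdown, and both KMS28BM libraries lay above both KMS18 libraries. Over both lines it had a log2 difference of -0.08 (SE 0.14, adjusted p of 0.763 by edgeR), which turned to 0.03 on FPKM with limma. The 95% interval of the log2 ratio of its counts, knockdown to control, ran from -0.39 to -0.06 in KMS18 and from 0.06 to 0.32 in KMS28BM. Such intervals are exact Poisson intervals and cover counting error only. SLC2A3, the high-affinity transporter GLUT3, had 0.03 FPKM in the KMS18 control, 0.26 in its knockdown, 0.01 in the KMS28BM control and 0.15 in its knockdown. SLC2A8, a glucose transporter outside the set that is named here after its values were seen, had 10.9 FPKM in the KMS18 control, 12.5 in its knockdown, 7.47 in the KMS28BM control and 11.4 in its knockdown, above SLC2A1 in 3 of the 4 libraries.

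HK2 and PGAM1 had the lowest estimates of the 30 genes. HK2 encodes hexokinase 2, the inducible hexokinase that docks on mitochondria, and it lies on chromosome 2 from 74833981 to 74893359 on the plus strand (GRCh38). HK2 moved from 15.3 FPKM to 6.06 with the knockdown in KMS18, and from 24.0 to 8.17 in KMS28BM. Both knockdown libraries lay below both controls, at 39.6% and 34.0% of their own control. Behind these values stood 3310 and 1321 expected counts for KMS18 and 5437 and 1836 for KMS28BM. The log2 count ratio had 95% intervals of -1.42 to -1.23 (KMS18) and -1.63 to -1.47 (KMS28BM). Over both lines HK2 fell by 1.51 in log2 (SE 0.11, adjusted p of 0.00292 by edgeR), and it was lower in 2 of 2 lines. Its listed length in the knockdowns was within 1% of the controls, so counts and FPKM gave the same picture.

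HK1, the constitutive hexokinase, was not called. HK1 had 1.79 FPKM in the KMS18 control, 2.17 in its knockdown, 2.48 in the KMS28BM control and 2.52 in its knockdown (0.17 in log2 over both lines, SE 0.18, adjusted p of 0.601 by edgeR). The difference between the 2 genes was not tested. HK2 made up 89.5% of the summed HK1 and HK2 FPKM in the KMS18 control and 73.6% in its knockdown. In KMS28BM that share was 90.6% in the control and 76.4% in the knockdown. HK2 thus remained the higher of these 2 hexokinases in every library, with a lower share in both knockdowns. HKDC1, a hexokinase-like gene outside the set, is not in these shares, and its 8.55 (control) and 15.2 FPKM (knockdown) in KMS18 put it above HK2 in that knockdown.

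The remaining upper glycolysis genes were not called. GPI, which turns glucose 6-phosphate into fructose 6-phosphate, measured 82.2 (control) and 89.2 FPKM (knockdown) for KMS18, with 154 and 166 FPKM for KMS28BM. The 3 phosphofructokinase subunits had log2 differences of 0.24 for PFKL (SE 0.11, adjusted p of 0.231 by edgeR), 0.13 for PFKM and 0.05 for PFKP. PFKL, the liver-type subunit, had 67.8 FPKM in the KMS18 control, 73.1 in its knockdown, 34.0 in the KMS28BM control and 47.3 in its knockdown, so it lay higher in both knockdowns. PFKM, the muscle-type subunit, measured 32.2 (control) and 40.5 FPKM (knockdown) for KMS18, with 20.98 and 22.4 FPKM for KMS28BM. PFKP, the platelet-type subunit, had 61.6 FPKM in the KMS18 control, 60.3 in its knockdown, 92.4 in the KMS28BM control and 111 in its knockdown. PFKP thus lay slightly lower in the KMS18 knockdown and higher in the KMS28BM knockdown, and the 2 lines did not overlap. PFKFB3, which makes the phosphofructokinase activator fructose 2,6-bisphosphate, measured 3.28 (control) and 3.94 FPKM (knockdown) for KMS18, with 6.19 and 6.11 FPKM for KMS28BM. Its paralog PFKFB4 lay between 0.27 and 0.70 FPKM.

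ALDOA, the main aldolase, was lower in both knockdown libraries without passing the test. ALDOA had 609.6 FPKM in the KMS18 control, 527 in its knockdown, 674 in the KMS28BM control and 616 in its knockdown (-0.19 in log2 over both lines, SE 0.10, adjusted p of 0.297 by edgeR). TPI1, which interconverts the 2 triose phosphates, measured 317 (control) and 275 FPKM (knockdown) for KMS18, with 363 and 354 FPKM for KMS28BM (-0.11 in log2 over both lines, adjusted p of 0.516 by edgeR). ALDOC, the brain-type aldolase, had 23.2 FPKM in the KMS18 control, 33.0 in its knockdown, 1.44 in the KMS28BM control and 1.43 in its knockdown. It was higher in the KMS18 knockdown, where its count interval ran from 0.42 to 0.62 in log2, and level in KMS28BM, where 92 and 91 counts gave an interval of -0.43 to 0.43.

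All 5 lower glycolysis genes had estimates below 0 on the TMM-scaled counts, with a median of -0.35, and 1 of the 5 passed the test. On FPKM with limma PGK1 turned to 0.02 in log2, and PGK1 in KMS18 went from 151 to 161 FPKM. Over all genes tested the median difference was 0.02 and 47.5% lay below 0. PGK1, phosphoglycerate kinase, had a log2 difference of -0.08 (SE 0.10, adjusted p of 0.665 by edgeR) and was at 164 and 160 FPKM in KMS28BM.

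PGAM1 was the lower glycolysis gene that fell. It encodes phosphoglycerate mutase 1, which moves the phosphate between 3-phosphoglycerate and 2-phosphoglycerate, and lies on chromosome 10 from 97426160 to 97433441 on the plus strand (GRCh38). PGAM1 moved from 79.8 FPKM to 25.7 with the knockdown in KMS18, and from 198 to 84.2 in KMS28BM. Each knockdown lay far below its own control, at 32.1% and 42.5% of it, although the KMS28BM knockdown lay above the KMS18 control. The reads behind it came to 5403 and 1735 expected counts for KMS18 and 13930 and 5846 for KMS28BM. The log2 count ratio had intervals of -1.72 to -1.56 (KMS18) and -1.28 to -1.19 (KMS28BM). Over both lines PGAM1 fell by 1.504 in log2 (SE 0.12, adjusted p of 0.0034 by edgeR), lower in 2 of 2 lines. PGAM4, a near-identical copy of PGAM1, had no entry in the 4 tables and was taken as 0, and reads of PGAM1, ENO1, LDHA, LDHB, PGK1, TPI1, PKM and ALDOA could be shared with pseudogenes in a way the files do not show. The same holds for GAPDH, given further on.

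Enolase and pyruvate kinase were lower in both knockdowns without passing the test. ENO1, the main enolase, measured 434 (control) and 342 FPKM (knockdown) for KMS18, with 1699 and 1448 FPKM for KMS28BM (-0.35 in log2 over both lines, SE 0.11, adjusted p of 0.0967 by edgeR). PKM, the pyruvate kinase gene of most tissues, had 225 FPKM in the KMS18 control, 183 in its knockdown, 379 in the KMS28BM control and 363 in its knockdown (-0.25 in log2 over both lines, SE 0.11, adjusted p of 0.205 by edgeR). ENO2, the neuronal enolase, was at 6.97 and 3.38 FPKM in KMS18. In KMS28BM ENO2 rested on 8 and 7 counts, so its estimate of -0.77 (SE 0.27, adjusted p of 0.122 by edgeR) came almost wholly from KMS18.

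**Figure D2:**
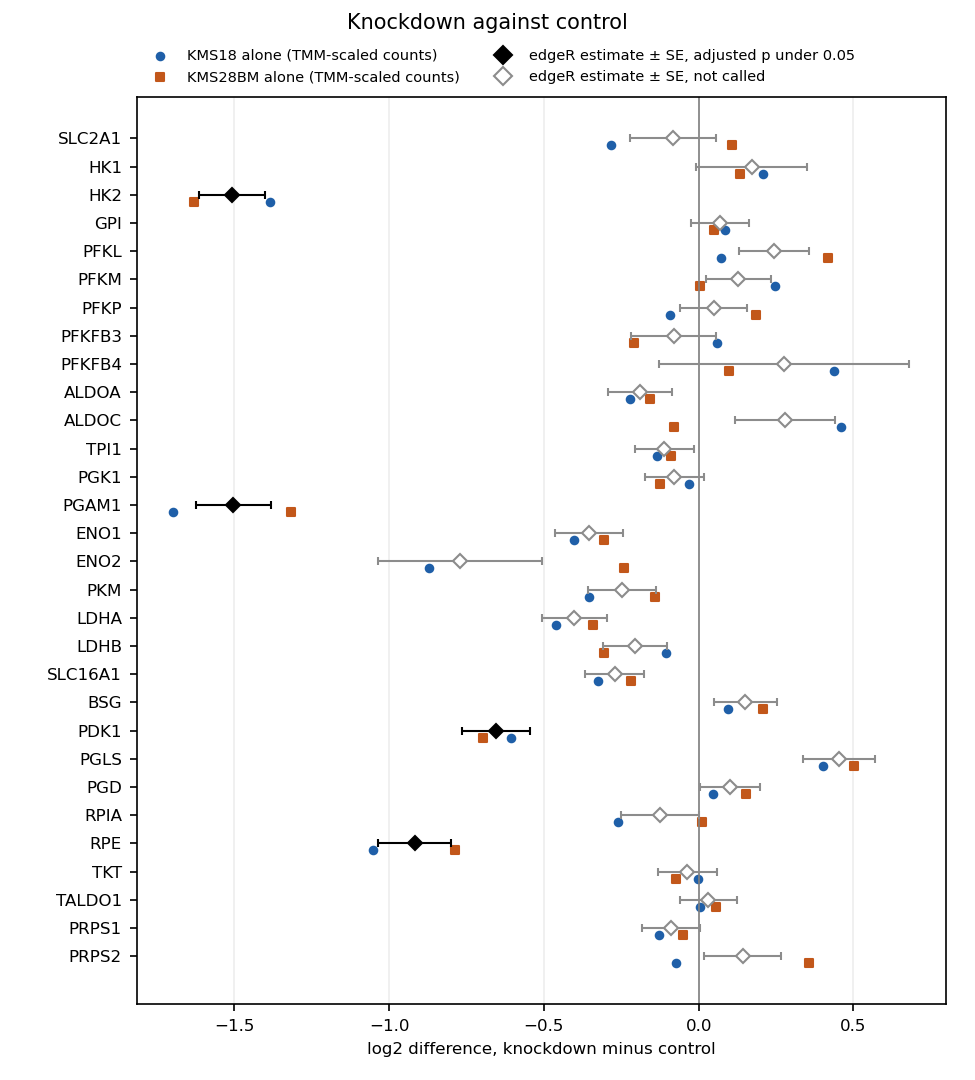
Log2 difference of knockdown minus control for the 30 genes tested. Circles and squares give each line alone from TMM-scaled counts, and diamonds give the edgeR estimate with its SE, filled where the adjusted p was under 0.05. HK2 and PGAM1 lie near -1.5, RPE near -0.9 and PDK1 near -0.65, with both lines below 0 for each, and the other estimates run from -0.77 (ENO2) to 0.45 (PGLS).

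The genes of lactate production and export did not pass the test. LDHA, the lactate dehydrogenase subunit that favours lactate, measured 536 (control) and 405 FPKM (knockdown) for KMS18, with 441 and 372 FPKM for KMS28BM. LDHA was lower in both knockdowns and just missed the threshold (-0.40 in log2 over both lines, SE 0.10, adjusted p of 0.0605 by edgeR). DESeq2 did call it, with an adjusted p of 0.000947, and called ENO1 with 0.00243. LDHB, the subunit typical of heart, had 231 FPKM in the KMS18 control, 224 in its knockdown, 309 in the KMS28BM control and 264 in its knockdown (-0.21 in log2 over both lines, adjusted p of 0.257 by edgeR). LDHA made up 69.9% of the summed LDHA and LDHB FPKM in the KMS18 control and 64.4% in its knockdown. In KMS28BM the LDHA share was 58.8% and 58.6%.

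The lactate exporters were read through SLC16A1, the monocarboxylate transporter MCT1, and its chaperone BSG (basigin). SLC16A1 measured 25.1 (control) and 20.9 FPKM (knockdown) for KMS18, with 32.7 and 30.6 FPKM for KMS28BM (-0.27 in log2 over both lines, SE 0.09, adjusted p of 0.126 by edgeR). Its value is the sum of 2 identifiers with near-equal counts, one of them an alternate copy. BSG had 232 FPKM in the KMS18 control, 256 in its knockdown, 375 in the KMS28BM control and 456 in its knockdown, higher in both knockdowns (0.15 in log2 over both lines, adjusted p of 0.397 by edgeR). SLC16A3, the exporter MCT4 of strongly glycolytic cells, was near 0, with 0.11 and 0.37 FPKM in the KMS18 libraries and 0.04 FPKM in both KMS28BM libraries.

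PDK1 fell. It encodes a pyruvate dehydrogenase kinase, which holds pyruvate out of the mitochondrial oxidation route, and it lies on chromosome 2 from 172555373 to 172608669 on the plus strand (GRCh38). PDK1 moved from 5.94 FPKM to 4.26 with the knockdown in KMS18, and from 13.4 to 8.50 in KMS28BM. The knockdowns were at 71.7% and 63.4% of their own controls, and the KMS28BM knockdown lay above the KMS18 control. The log2 count ratio had intervals of -0.69 to -0.40 (KMS18) and -0.72 to -0.52 (KMS28BM). Over both lines PDK1 fell by 0.65 in log2 (SE 0.11, adjusted p of 0.0182 by edgeR), lower in 2 of 2 lines. The call was lost with no filter on low counts (edgeR adjusted p = 0.0562) and with limma on log2(FPKM + 1) (adjusted p = 0.052).

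In the pentose phosphate pathway 1 of 8 genes passed the test, and the 8 estimates split into 4 below and 4 above 0. RPE, ribulose 5-phosphate epimerase of the non-oxidative branch, was the one that fell. RPE lies on chromosome 2 from 210002565 to 210022259 on the plus strand (GRCh38). It moved from 17.0 FPKM to 10.2 with the knockdown in KMS18, and from 27.3 to 18.5 in KMS28BM, which is 59.6% and 67.5% of control. The log2 count ratio had intervals of -1.12 to -0.87 (KMS18) and -0.81 to -0.61 (KMS28BM). Over both lines RPE fell by 0.92 in log2 (SE 0.12, adjusted p of 0.00965 by edgeR), lower in 2 of 2 lines.

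The RPE counts moved more than its FPKM since the listed gene length, a mean over the estimated isoforms, was also shorter in both knockdowns. That length went from 2376 to 2007 bases in KMS18 and from 2127 to 1928 bases in KMS28BM. RPE shares 837 of its 3504 annotated exon bases with KANSL1L on the opposite strand, and the library kit does not keep strand. HK2 and PDK1 share 7 and 258 exon bases with opposite-strand RNA genes, and 17 of the 32 genes share some exon bases with another gene. KANSL1L measured 9.82 (control) and 11.9 FPKM (knockdown) for KMS18, with 7.11 and 7.48 FPKM for KMS28BM. The part of KANSL1L reads in the RPE values was not tested.

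PGLS, which hydrolyses 6-phosphogluconolactone in the oxidative branch, had the highest estimate of the 30 genes. It had 16.3 FPKM in the KMS18 control, 22.4 in its knockdown, 23.4 in the KMS28BM control and 34.9 in its knockdown, higher in both knockdowns. PGLS missed the threshold (0.45 in log2 over both lines, SE 0.12, adjusted p of 0.0579 by edgeR), and it passed with limma on log2(FPKM + 1) (adjusted p = 0.0379) and with edgeR on genes at 5 CPM or more in 2 libraries (adjusted p = 0.0461). PGD, the phosphogluconate dehydrogenase that yields NADPH, measured 57.3 (control) and 62.0 FPKM (knockdown) for KMS18, with 198 and 231 FPKM for KMS28BM (0.10 in log2 over both lines, adjusted p of 0.561 by edgeR). Both of these genes were higher in each knockdown library, with no call.

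The other non-oxidative genes did not pass. RPIA, ribose 5-phosphate isomerase, had 13.8 FPKM in the KMS18 control, 11.98 in its knockdown, 10.8 in the KMS28BM control and 11.4 in its knockdown. TKT, transketolase, measured 167 (control) and 179 FPKM (knockdown) for KMS18, with 89.7 and 92.5 FPKM for KMS28BM. TALDO1, transaldolase, had 85.5 FPKM in the KMS18 control, 88.5 in its knockdown, 150 in the KMS28BM control and 163 in its knockdown. The 3 had edgeR adjusted p-values of 0.59, 0.855 and 0.878. PRPS1 and PRPS2, which activate ribose 5-phosphate for nucleotide synthesis, had log2 differences of -0.09 (0.0021 on FPKM with limma) and 0.14. PRPS1 had 40.1 FPKM in the KMS18 control, 37.8 in its knockdown, 62.2 in the KMS28BM control and 66.2 in its knockdown, so the lines did not overlap while the constructs lay close together. PRPS2 measured 35.6 (control) and 34.97 FPKM (knockdown) for KMS18, with 42.4 and 57.4 FPKM for KMS28BM, so its higher level was in the KMS28BM knockdown.

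**Figure D3:**
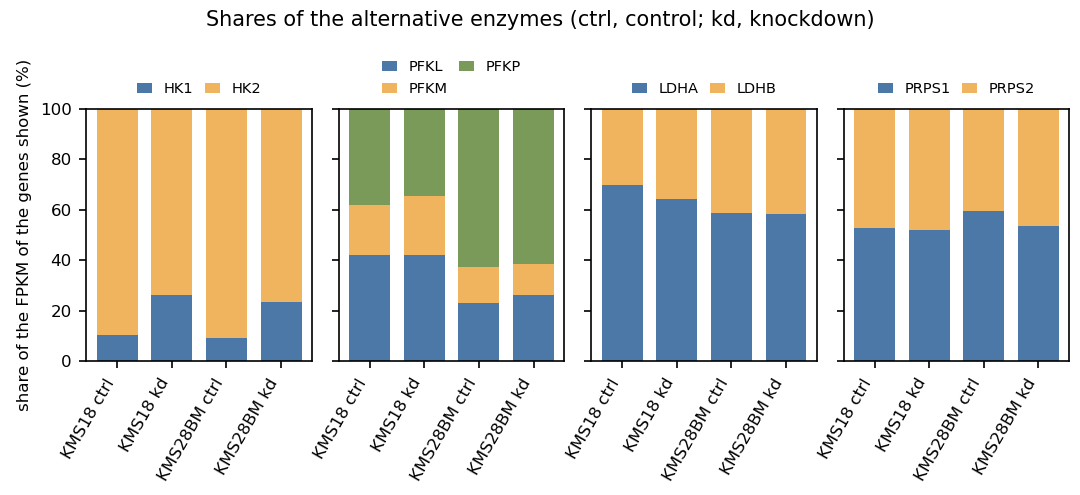
Share of each enzyme in the summed FPKM of the family members shown, in percent from 0 to 100, with 1 bar per library for HK1 and HK2, phosphofructokinases, lactate dehydrogenases and phosphoribosyl pyrophosphate synthetases. HK2 holds 89.5% and 90.6% of the HK1 and HK2 bar in the controls and 73.6% and 76.4% in the knockdowns, and PFKP holds the largest part of the phosphofructokinase bar in KMS28BM.

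Within each line, HK2 and PGAM1 were past a rule of size. The rule asks for a difference of at least 1 on log2(FPKM + 1), on which changes of low genes look smaller than they are, with at least 1 FPKM in 1 of the 2 libraries. In KMS18, 2 of 29 members that reached 1 FPKM were past it downward and 0 upward, where 0.647% of all such genes were past it downward and 0.818% upward. In KMS28BM, 2 of 28 were past it downward and 0 upward, with 0.751% and 1.24% of all genes. The same 2 genes were past the rule in both lines, HK2 with -1.21 and -1.45 and PGAM1 with -1.60 and -1.23. Of the 30 genes tested, 24 had the same sign in both lines on the TMM-scaled counts. The same-sign share over all genes was not counted, so the 24 cannot be called particular to these genes. An estimate below 0 was found for 18 of the 30, against 47.5% of all genes tested. The median of the 30 was -0.08.

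Genes of the same pathways that are not among the 32 were read from lists fixed by name, with earlier results of these data known. Of 27 tested of 37 other glycolysis and lactate genes, 3 fell and 1 rose. Over all 14870 genes tested, 5.25% were called lower and 3.57% higher (edgeR). GAPDH, which sits between TPI1 and PGK1 in the pathway, moved from 2614 FPKM to 582 with the knockdown in KMS18, and from 1823 to 561.5 in KMS28BM and fell by 1.99 in log2 (SE 0.14, adjusted p of 0.00292 by edgeR). SLC16A7, the pyruvate and lactate transporter MCT2, fell by 0.58 (SE 0.10), and PDP2, a phosphatase that counters PDK1, fell by 0.70 (SE 0.15). HKDC1, a hexokinase-like gene, rose by 0.93 (SE 0.20, adjusted p of 0.0439 by edgeR), but it had no entry in either KMS28BM table and was taken as 0 there, so the call rested on 8.55 and 15.2 FPKM in KMS18. Of 9 other pentose phosphate genes, 1 rose and 0 fell, beside the same shares of all genes. It was H6PD, which runs the oxidative steps inside the endoplasmic reticulum, with 1.63 FPKM in the KMS18 control, 3.34 in its knockdown, and 4.14 and 8.51 in KMS28BM (0.82 in log2 over both lines, SE 0.11, adjusted p of 0.0101 by edgeR).

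Of 11 regulators of glycolysis genes, 2 fell and 0 rose, against 5.25% and 3.57% of all genes tested. MYC moved from 405 FPKM to 258 with the knockdown in KMS18, and from 646 to 304 in KMS28BM and fell by 0.91 in log2 (SE 0.13, adjusted p of 0.0128 by edgeR). HIF1A, the oxygen-regulated subunit of HIF-1, moved from 23.0 FPKM to 14.1 with the knockdown in KMS18, and from 43.3 to 30.6 in KMS28BM and fell by 0.57 (SE 0.10, adjusted p of 0.0183 by edgeR). ARNT, its partner subunit, had a log2 difference of 0.25 (SE 0.09, adjusted p of 0.148 by edgeR), and TXNIP, a glucose-responsive brake on glucose uptake, had 0.36 (SE 0.10, adjusted p of 0.0663 by edgeR). MLXIP, MLX, VHL, EGLN1 and TIGAR had edgeR adjusted p-values from 0.113 to 0.919. ARRDC4 had no entry in the KMS28BM tables and was at 1.64 and 2.61 FPKM in KMS18. EPAS1 reached 1.01 FPKM in the KMS18 knockdown and lay below 1 FPKM in the other libraries.

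More of the genes were called between the lines than between the constructs. The line test took the control and knockdown libraries of a line together, with the same 1 residual degree of freedom. Its p-values compare these 2 lines only. Of the 30 genes, 17 were higher and 6 lower in KMS28BM than in KMS18, where 30.6% of all genes were higher and 32.3% lower (edgeR, adjusted p under 0.05). The members' median line difference was 0.42 against -0.02 over all genes. ENO1 was higher in KMS28BM by 1.93 in log2 (SE 0.11, adjusted p of 1.62e-05 by edgeR), PGD by 1.75 (SE 0.10) and PGAM1 by 1.42 (SE 0.12). These 3 were higher in KMS28BM under both constructs, and for each of them both KMS28BM libraries lay above both KMS18 libraries.

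The tissue-restricted isozymes showed the widest gap between the lines. ALDOC was lower in KMS28BM by a log2 difference of -4.36 (SE 0.17, adjusted p of 3.0e-06 by edgeR). ENO2 was lower by -5.98 (SE 0.30, adjusted p of 8.68e-06 by edgeR). For both genes the lower KMS18 library lay well above the higher KMS28BM library. ALDOC made up 3.7% and 5.9% of the summed aldolase FPKM in KMS18 and 0.2% in both KMS28BM libraries, so ALDOA carried nearly all of it in either line.

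The phosphofructokinase mix also differed between the lines. PFKL was lower in KMS28BM by -0.89 (SE 0.11) and PFKM by -0.82 (SE 0.10), while PFKP was higher by 0.72 (SE 0.11), each with an edgeR adjusted p of at most 0.00112. PFKP took 62.7% and 61.4% of the summed phosphofructokinase FPKM in KMS28BM and 38.1% and 34.7% in KMS18, where PFKL was ahead with 42.0% in both libraries. In the pentose phosphate pathway TKT was lower in KMS28BM by -0.97 (SE 0.10), while TALDO1 was higher by 0.76 (SE 0.09), RPE by 0.57 (SE 0.12) and PGLS by 0.50 (SE 0.12). PDK1 was higher by 0.88 (SE 0.11) and HK2 by 0.47 (SE 0.11). LDHA was lower by -0.29 (SE 0.10, adjusted p of 0.0464 by edgeR), and that call was lost with median of ratios scaling, no filter on low counts, limma and no construct term. The 7 genes with no call were LDHB, RPIA, TPI1, ALDOA, PFKFB4, HK1 and PGK1.

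**Figure D4:**
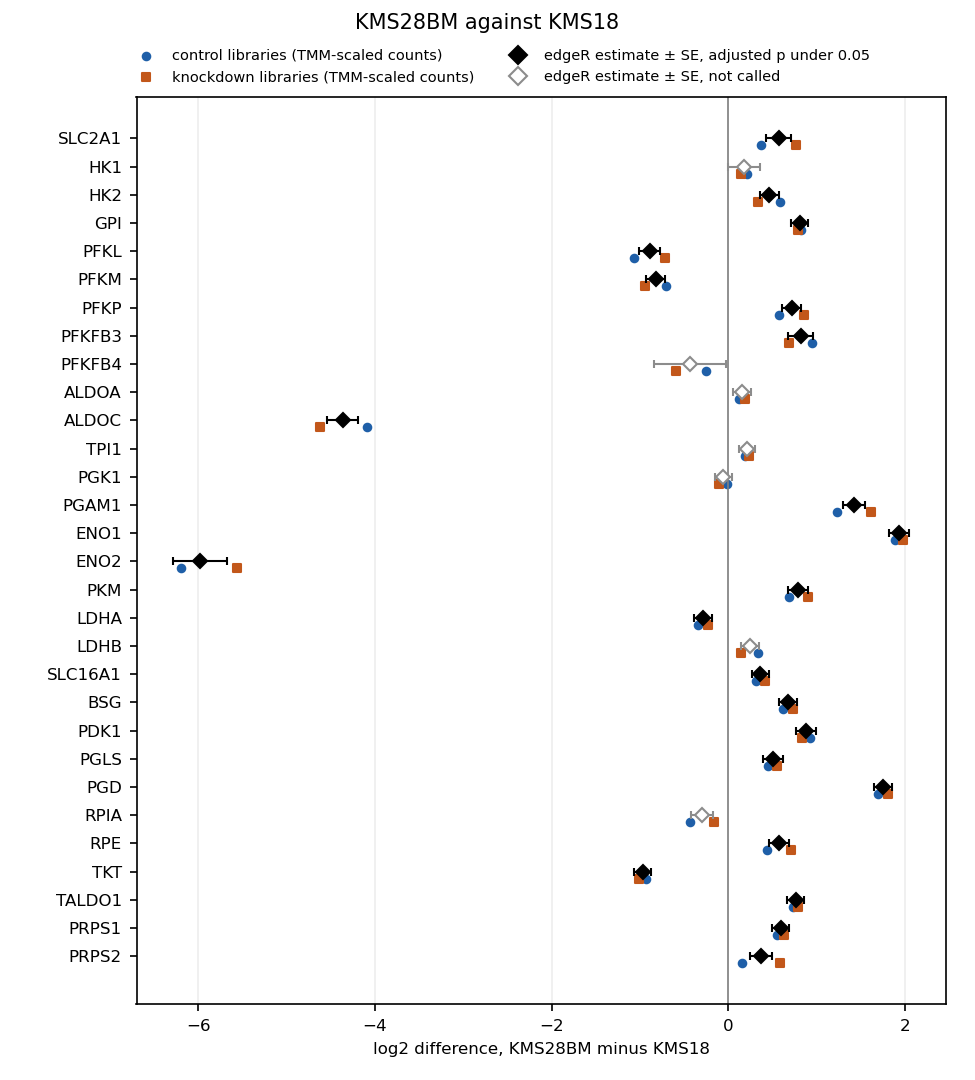
Log2 difference of KMS28BM minus KMS18 for the 30 genes tested. Circles compare the control libraries and squares the knockdown libraries on TMM-scaled counts, and diamonds give the edgeR estimate with its SE, filled where the adjusted p was under 0.05. ALDOC and ENO2 lie at -4.36 and -5.98, and ENO1, PGD and PGAM1 lie highest, from 1.42 to 1.93.

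The printed 3′ UTR sites can be set against all members and all genes. Of the 30 tested members, 5 held AGTCTA in an annotated 3′ UTR, namely the 4 that fell and PGK1. The other 25 had log2 differences of -0.77 to 0.45 and none was called, with a lowest edgeR adjusted p of 0.0579. HK2 held CAGTCTA, 2 genes (PGAM1 and RPE) held CAGTCTAA, and PDK1 and PGK1 held no run longer than AGTCTA. Over the 12765 tested genes with an annotated 3′ UTR, 24.8% held AGTCTA, and 12.6% of those were called lower with the knockdown against 3.65% of the rest. CAGTCTA was held by 8.55% and AGTCTAA by 8.76%, with 18.1% and 18.6% called lower. The letters were taken from an earlier look at these same data, so a higher called share among their holders is no independent result and supports nothing. AGTCTA lies within the longer runs, so these groups overlap, and the search used the transcript strand alone. Genes with AGTCTA had longer 3′ UTRs, with a median of 3051.5 bases against 1004 bases without it.

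The place of the letters in the transcript differed between the 5 genes. The HK2 site is in both of its 2 transcripts and lies near the end of a 3′ UTR of 2418 bases, and the PGAM1 site is in its 1 transcript, in a 3′ UTR of 917 bases. RPE holds a second match at chr2:210021128-210021152, and both are in 4 of its 11 transcripts, while the listed RPE length was shorter in both knockdowns. PDK1 holds AGTCTA at 3 places in a 3′ UTR of 12700 bases, and 2 of them are in 1 of its 2 transcripts. In PGK1 the letters start at base 2358 of a transcript of 4887 bases, beyond its listed mean lengths of 1801 to 1875 bases in the 4 libraries. The first PDK1 match starts at base 4249 of a transcript of 14193 bases and the others further on, at or beyond the listed PDK1 lengths of 3778 to 4249 bases. The second RPE match starts at base 2043, beyond the listed RPE lengths of the 2 knockdowns. These listed lengths are means over isoforms, so they do not show which transcripts hold a match.

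**Figure D5:**
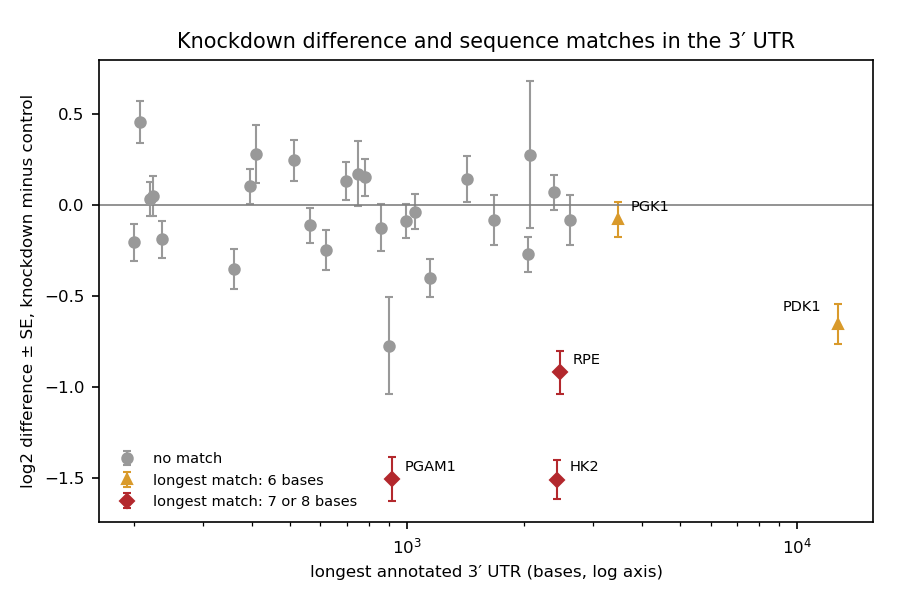
Log2 difference of knockdown minus control, with SE, against the length of the longest annotated 3′ UTR in bases on a log axis, for the 30 genes tested. Diamonds (HK2, PGAM1, RPE) hold a match of 7 or 8 bases, triangles (PDK1, PGK1) one of 6 bases, and circles none. The 3 diamonds lie at -0.92 or lower, and no circle lies below -0.77. The letters were taken from an earlier look at these data, so the plot is a description alone.

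The promoters were read for ACGTG and CACGTG, because the 2 named regulators fell. ACGTG is 1 form of the core letters of the hypoxia response element, and other forms were not searched. CACGTG is the E-box that MYC can bind. The windows hold 250 bases before and 50 bases after a start in the RefSeq table on GRCh38.p14, and 30 of the 32 genes had 1 or more. On either strand, 15 of these 30 genes (50%) held ACGTG in a window, against 32.2% of tested genes and 24.9% of all genes in the table. CACGTG, which contains ACGTG on both strands, was in 6 of 30 (20%), against 12.7% and 8.77%. Of the 4 genes that fell, HK2 held ACGTG in both of its windows and PDK1 in 1 of its 2, while the single windows of PGAM1 and RPE held none. The second HK2 window held CACGTG at 2 places. The other genes with ACGTG were GPI, PFKM, PFKP, PFKFB3, ALDOA, ALDOC, TPI1, PGK1, ENO2, LDHA, SLC16A3, BSG and PGD. None of them was called with the knockdown, and PFKFB3, ALDOA, ALDOC, LDHA and BSG held CACGTG too. Each share counts a gene that holds the letters in any of its windows, and it is not adjusted for the number of windows. The RefSeq starts of the 4 windows printed below, and of the second HK2 window, lie inside the spans that GENCODE gives the genes. The printed HK2 and RPE windows reach across the GENCODE start, and those of PGAM1 and PDK1 do not. The PDK1 window next to its GENCODE start held no ACGTG. The region at the GENCODE start of PGAM1 was not read. For each of the 4 genes the 250 bases before 1 RefSeq start, all on the plus strand, are shown with ACGTG on either strand in capitals (CACGT is its other strand).
HK2 chr2:74833877-74834126: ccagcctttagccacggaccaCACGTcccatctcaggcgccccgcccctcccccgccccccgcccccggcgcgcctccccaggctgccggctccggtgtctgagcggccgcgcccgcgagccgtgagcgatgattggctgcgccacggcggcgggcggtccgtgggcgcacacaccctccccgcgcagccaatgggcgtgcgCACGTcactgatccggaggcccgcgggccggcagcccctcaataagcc
PDK1 chr2:172555840-172556089: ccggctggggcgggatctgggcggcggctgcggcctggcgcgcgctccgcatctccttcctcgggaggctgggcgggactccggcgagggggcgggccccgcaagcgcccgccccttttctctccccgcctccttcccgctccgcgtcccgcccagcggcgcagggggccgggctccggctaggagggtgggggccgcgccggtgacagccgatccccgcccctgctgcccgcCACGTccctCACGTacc
PGAM1 chr10:97427568-97427817: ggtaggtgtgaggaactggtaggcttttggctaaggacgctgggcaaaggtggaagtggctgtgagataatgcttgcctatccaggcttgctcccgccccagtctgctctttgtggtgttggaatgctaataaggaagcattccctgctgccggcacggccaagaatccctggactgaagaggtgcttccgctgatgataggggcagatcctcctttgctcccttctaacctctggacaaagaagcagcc
RPE chr2:210002388-210002637: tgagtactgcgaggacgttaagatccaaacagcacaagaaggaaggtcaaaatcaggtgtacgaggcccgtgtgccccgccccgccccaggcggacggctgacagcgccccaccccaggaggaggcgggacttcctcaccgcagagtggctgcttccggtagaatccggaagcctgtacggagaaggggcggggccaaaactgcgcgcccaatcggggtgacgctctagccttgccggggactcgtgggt
A match here describes the letters of a window, and the absence of a match says only that the letters are not in that window.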

How the data were processed

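RNA of 4 libraries, each made from 100 ng of total RNA with a TruSeq version 2 kit per the labels' protocols, was measured by sequencing. Per the file headers, the deposited tables give the authors' expected count (an estimated count, not normalized), FPKM (scaled by the authors to gene length and library size) and listed length of each gene identifier. STAR, Bowtie2, HISAT, GRCh37 and hg19 stand in the submitters' processing notes, without their roles. What program counted the fragments is not given in those notes. Between 52.2% and 54.0% of the expected counts lay within 0.005 of a whole number. Positions and 3′ UTRs come from GENCODE 29 on GRCh38, matched by gene symbol, and promoters from the RefSeq table on GRCh38.p14.

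Counts and FPKM of 23844 identifiers were summed by symbol to 22187 genes. Counts were rounded to whole numbers and tested with edgeR 4.0.16 in R 4.3.3 (quasi-likelihood, TMM scaling, default filter with minimum count 10, cell line and construct as terms). Libraries were paired by their line, which holds 1 library per construct. This left 1 residual degree of freedom, moderated with a prior of 5.85, and Benjamini-Hochberg adjustment over 14870 genes at 0.05. DESeq2 1.42.0, limma 3.58.1, other filters, another scaling and single lines were alternatives. All 32 genes were named by rule, and genes of the other lists where called. The members and lists were chosen with earlier results of these data known. Depths of 37940949 to 39507281 expected counts per library give narrow counting intervals except for genes with few counts. Nothing says that libraries came from repeated cultures.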

Additional observations from a re-analysis of the deposited data

Results flagged for a closer look

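For 6 genes the knockdown differences of the lines had opposite signs on TMM-scaled counts. With 1 library per group the difference between lines was not tested. The KMS28BM difference minus the KMS18 difference, in log2, was 0.39 for SLC2A1, 0.28 for PFKP, 0.27 for RPIA and 0.43 for PRPS2. For these genes the knockdown difference was positive in KMS28BM and negative in KMS18. The value was -0.54 for ALDOC and -0.27 for PFKFB3, with the signs the other way round. Only for SLC2A1 did the count intervals of both lines exclude equal levels, and these intervals carry no TMM scaling. They included equal levels in KMS18 for PFKP, PRPS2 and PFKFB3 (-0.08 to 0.31). In KMS28BM they did so for RPIA (-0.05 to 0.24), PFKFB3 (-0.27 to 0.01) and ALDOC (-0.43 to 0.43). Outside SLC2A1, the move of at least 1 line was thus within counting error. None of the 6 was called over both lines (edgeR).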

How the results depend on the processing

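With 1 library per group in each line, the design limits what any count of calls can show. The count of genes called lower with the knockdown was 4 with edgeR, 4 with median of ratios scaling, 6 with DESeq2, 3 with limma at pseudocount 1 and 3 when low counts were kept. Without the replicate block (no cell line term) it was 0, and of all 14870 genes 0 were then called, with 215 at an unadjusted p under 0.05. The count called higher was 1 in place of 0 with genes at 5 CPM in 2 libraries and with limma on either pseudocount (PGLS each time). With no construct term, 9 genes in place of 17 were higher in KMS28BM. With limma on FPKM, 5 uncalled knockdown differences changed sign: with pseudocount 1 and then 0.1, SLC2A1 gave 0.0301 and 0.0295, PFKFB3 0.0954 and 0.119, PGK1 0.0227 and 0.0228, TKT 0.0744 and 0.0749, and PRPS1 0.00211 and 0.00176. The PGK1 difference between lines turned to 0.0556 and 0.0559. The cause of these changes was not tested. HK2, PGAM1 and RPE were called under each alternative with a cell line term, and all 4 called genes were lower in each line alone. Counting noise limits ENO2 and ALDOC in KMS28BM and SLC2A3, SLC16A3 and PFKFB4 throughout.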
